A study of Mus musculus with 8 samples.

Results

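A set of 9 transporter genes of the hepatocyte surface was read in livers of Rap1-deficient and wild-type mice. The members were chosen by name, as every non-control probe whose accession mapped to a listed uptake or efflux transporter. All 9 genes were found, on 10 of the 55681 probes of the array, and all 9 entered the comparison among 14066 tested genes. The 4 uptake carriers were Slco1a1, Slco1a4, Slco1b2 and Slco2b1, and the 5 efflux pumps were Abcc2, Abcc3, Abcc4, Abcb1a and Abcg2.

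Hepatocytes clear drugs, bile acids, bilirubin conjugates and hormone conjugates from blood in successive steps of uptake, metabolism and export. Organic anion transporting polypeptides, encoded by the Slco genes, carry anions inwards across the sinusoidal membrane that faces blood. Pumps of the ATP-binding cassette family export them, some across the canalicular membrane into bile (Abcc2, Abcb1a, Abcg2) and some back to blood (Abcc3, Abcc4). In mice several of these genes are known to differ between the sexes, and several are known targets of the nuclear receptors CAR and PXR.

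Total RNA of whole liver was labelled with Cy3 and hybridized to Agilent oligonucleotide arrays, 1 mouse per array, with 4 Rap1 -/- and 4 wild-type mice as biological replicates. All mice were 10 weeks old, and both genotypes were on a C57BL6/129SV (90%:10%) background. Rap1 -/- mice lack Rap1 in the whole body. The study obtained them by crossing floxed mice with mice that express cre recombinase from the EIIa promoter in early embryos, and then bred the cre allele out. Per the study, young mice used for profiling were female, but the labels state no sex and no feeding state. RNA was taken from whole liver, so fewer cells of a type and less RNA per cell cannot be told apart.

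The share of probes called well above background lay between 50.03% and 65.3% per array. The targeted gene, Terf2ip, which encodes RAP1, had 2 probes. One (A_52_P381806) was well above background on 0 of 4 Rap1 -/- arrays, at -6.57 to -5.65 on the log2 scale, and on 4 of 4 wild-type arrays, at 0.03 to 0.23 (limma, adjusted p = 7.09e-06). The other (A_55_P2094079) was at 0.03 to 0.44 in Rap1 -/- and at -1.12 to -0.69 in wild-type liver (adjusted p = 0.127). Of the hepatocyte markers, albumin (Alb) among them, 7 of 7 entered the comparison. So did 6 of 6 cholangiocyte and 6 of 6 sinusoidal endothelial markers, so entering the comparison does not by itself bear out the tissue label. Each slide held 4 arrays, and its replicates 1 and 2 (slide 1) or 3 and 4 (slide 2) of both genotypes. Rap1 -/- RNA always lay in positions 3 and 4 and wild-type RNA in positions 1 and 2, so position and genotype cannot be told apart.

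In the following, a level is the log2 of a probe's processed signal minus the log2 of that array's 75th percentile, so 1 unit is a doubling and 0 is the percentile itself. Levels of different genes come from different probes and were not set against each other. Differences are Rap1 -/- minus wild-type on the same log2 scale, with the standard error (SE) from limma, 4 arrays per genotype and p values adjusted over all tested genes by the method of Benjamini and Hochberg. All 10 probes were well above background on all 8 arrays.

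No transporter differed between genotypes beyond the spread between mice. Of the 9 genes, 0 passed an adjusted p of 0.05 and 0 had an unadjusted p under 0.05. Over all tested genes 0.0142% passed the adjusted threshold (2 genes) and 6.36% had an unadjusted p under 0.05. In 0 of 9 transporters did the 4 Rap1 -/- livers lie apart from the 4 wild-type livers, against 4.31% of all tested genes. The median difference of the 9 genes was 0.09, beside 0.02 for all tested genes. It was 0.02 over the 4 uptake carriers, from -0.39 to 0.12, and 0.13 over the 5 efflux pumps, from -0.14 to 0.53. The array values show that the spread itself was very uneven, from a carrier that was nearly constant to one that varied 29.3-fold between mice.

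**Figure D1:**
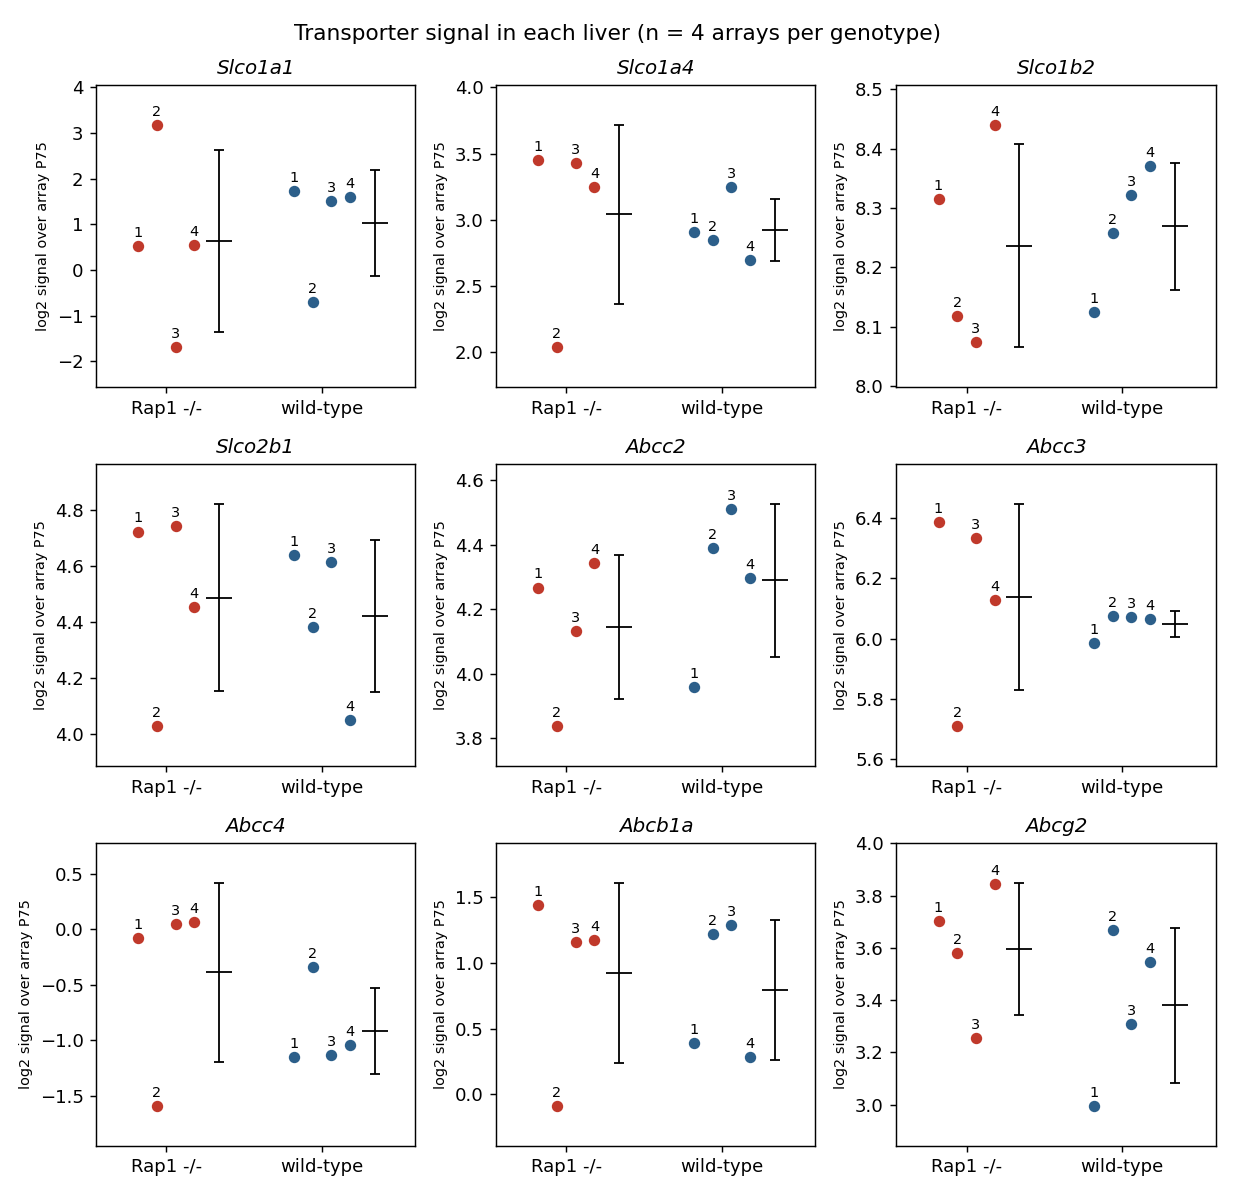
Level of each transporter (y axis, log2 signal over the array's 75th percentile, a separate scale per panel) in each liver, with Rap1 -/- on the left and wild-type on the right. Points carry replicate numbers and bars give the mean and SD of 4 arrays; in 6 of 9 panels the second Rap1 -/- liver is the lowest point, and for Slco1a1 it is the highest.

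Slco1b2 encodes Oatp1b2, the main liver-specific uptake carrier for bilirubin conjugates, statins and microcystin in mouse. Its levels were 8.32, 8.12, 8.07 and 8.44 in Rap1 -/- replicates 1 to 4, against 8.12, 8.26, 8.32 and 8.37 in wild-type replicates 1 to 4. All 8 livers lay within a 1.29-fold range and the genotypes overlapped throughout. The difference was -0.03 (SE 0.11, adjusted p = 0.984), and the 95% confidence interval of the ratio ran from 0.817 to 1.17. 

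Slco2b1, which encodes the broadly expressed carrier Oatp2b1, was read by 2 probes. With the brighter probe (A_55_P2079009) its levels were 4.72, 4.03, 4.74 and 4.46 in Rap1 -/- livers, against 4.64, 4.38, 4.62 and 4.05 in wild-type livers. Replicate 2 was the low one among Rap1 -/- livers and replicate 4 among wild-type livers. The difference was 0.07 (SE 0.19, adjusted p = 0.976). The dimmer probe (A_55_P2030155) gave 2.95, 2.26, 2.99 and 2.66 in Rap1 -/- livers, against 2.81, 2.61, 2.75 and 2.20 in wild-type livers. As with the brighter probe, Rap1 -/- replicates 1 and 3 were highest and Rap1 -/- replicate 2 and wild-type replicate 4 were lowest. Its difference was 0.12 (SE 0.20, adjusted p = 0.93 over all tested probes).

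Slco1a4 and Slco1a1 lie together in a cluster of Slco1 genes on chromosome 6, and in mouse liver Slco1a4 is known as female-predominant and Slco1a1 as male-predominant. Slco1a4 encodes Oatp1a4, a carrier of cardiac glycosides and organic anions. Its levels were 3.45, 2.04, 3.43 and 3.25 in Rap1 -/- livers, against 2.91, 2.85, 3.25 and 2.70 in wild-type livers. Rap1 -/- replicates 1 and 3 lay above the wild-type range, replicate 4 at its top end and replicate 2 below it. The mean level was 3.04 ± 0.68 in Rap1 -/- and 2.92 ± 0.23 in wild-type liver (SD, n = 4 each), a difference of 0.12 (SE 0.31, adjusted p = 0.969, two-sided exact permutation p = 0.886). Without Rap1 -/- replicate 2 the difference was 0.45 (SE 0.15), with an unadjusted p from limma of 0.0163 and an adjusted p of 0.864. Leaving out Rap1 -/- replicate 1, 3 or 4 instead gave unadjusted p values from limma of 0.953, 0.972 and 0.893. Replicate 2 was singled out from these same values, so the p without it is a description.

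Slco1a1, which encodes the anion and steroid conjugate carrier Oatp1a1, was the transporter that varied most. Its levels were 0.51, 3.18, -1.70 and 0.55 in Rap1 -/- livers, against 1.73, -0.71, 1.5 and 1.61 in wild-type livers. The highest and the lowest liver of all 8 were both Rap1 -/-, and among wild-type livers replicate 2 lay well below the other 3. The 4 Rap1 -/- livers spanned a 29.3-fold range and the 4 wild-type livers a 5.45-fold range. The difference was -0.39 (SE 0.96, adjusted p = 0.962, two-sided exact permutation p = 0.8), and the confidence interval of the ratio, from 0.168 to 3.43, was too wide to bound a change in either direction. The SD within genotypes, pooled, was 1.63 for Slco1a1, more than in 99.8% of tested genes, whose median was 0.211. It was also more than in 99.9% of genes that were well above background on all arrays.

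Among the pumps, Abcc2 encodes Mrp2, which exports bilirubin glucuronides and glutathione conjugates into bile. Its levels were 4.27, 3.84, 4.13 and 4.34 in Rap1 -/- livers, against 3.96, 4.39, 4.51 and 4.30 in wild-type livers. The lowest liver of each genotype lay on slide 1, and the ranges overlapped over most of their length. The difference was -0.14 (SE 0.16, adjusted p = 0.89).

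Abcc3 encodes Mrp3, which returns glucuronides from hepatocytes to blood. Its levels were 6.39, 5.71, 6.33 and 6.13 in Rap1 -/- livers, against 5.99, 6.08, 6.07 and 6.07 in wild-type livers. The wild-type livers were nearly identical, and Rap1 -/- livers lay on both sides of them, 3 above and replicate 2 below. The SD was 0.307 in Rap1 -/- and 0.0428 in wild-type liver, and the difference was 0.09 (SE 0.15, adjusted p = 0.938). Over the 9 transporters the SD was larger in Rap1 -/- liver for 7, beside 53.4% of all tested genes.

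Abcc4 encodes Mrp4, a sinusoidal pump for bile acids, steroid sulfates and cyclic nucleotides. Its levels were -0.08, -1.59, 0.05 and 0.07 in Rap1 -/- livers, against -1.15, -0.34, -1.13 and -1.04 in wild-type livers. For Abcc4, 3 Rap1 -/- livers lay above all 4 wild-type livers and replicate 2 below all of them. The difference was 0.53 (SE 0.38, ratio 1.44 with a confidence interval from 0.797 to 2.6, adjusted p = 0.841, two-sided exact permutation p = 0.4), which was the largest positive estimate of the 9 and did not pass. Without Rap1 -/- replicate 2 it was 0.93 (SE 0.20), with an unadjusted p from limma of 0.00211 and an adjusted p of 0.781. Leaving out Rap1 -/- replicate 1, 3 or 4 instead gave unadjusted p values from limma of 0.34, 0.379 and 0.384. As replicate 2 was singled out from these same values, the p without it is a description.

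Abcb1a encodes P-glycoprotein, the canalicular pump for bulky cationic and neutral drugs. Its levels were 1.44, -0.09, 1.16 and 1.17 in Rap1 -/- livers, against 0.39, 1.22, 1.29 and 0.28 in wild-type livers. Again replicate 2 was the single low liver among Rap1 -/- mice, while the wild-type livers fell 2 high and 2 low. The difference was 0.13 (SE 0.37, adjusted p = 0.975, two-sided exact permutation p = 0.886).

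Abcg2 encodes the breast cancer resistance protein, which exports sulfate conjugates and many drugs into bile. Its levels were 3.70, 3.58, 3.25 and 3.85 in Rap1 -/- livers, against 3.00, 3.67, 3.31 and 3.55 in wild-type livers. Replicate 2 did not stand apart here, the lowest Rap1 -/- liver being replicate 3. The difference was 0.22 (SE 0.18, ratio 1.16 with a confidence interval from 0.877 to 1.54, adjusted p = 0.862, two-sided exact permutation p = 0.314).

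**Figure D2:**
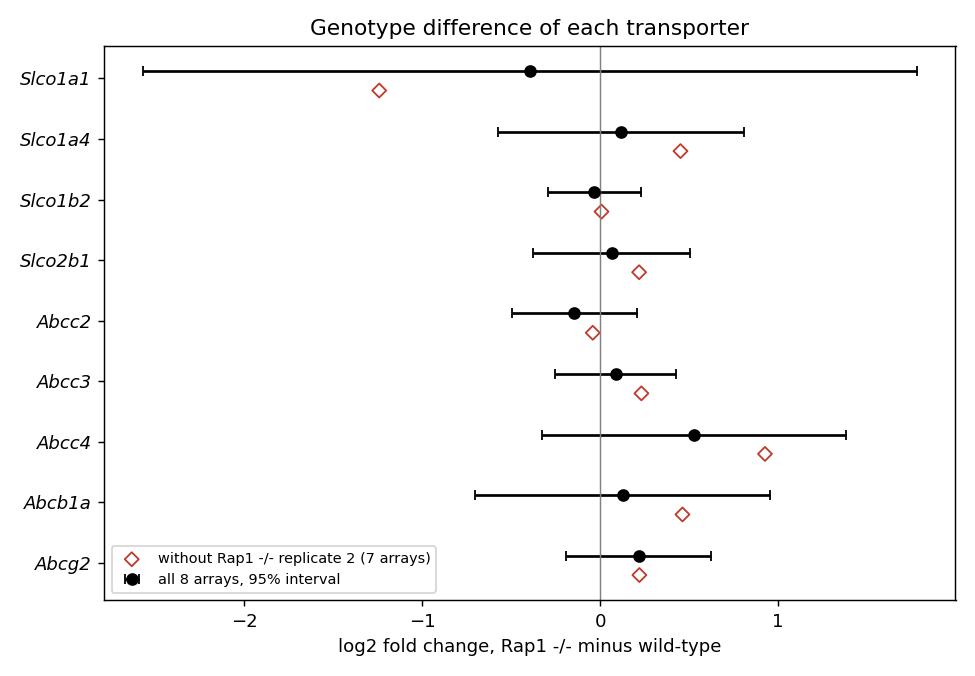
Difference in level between Rap1 -/- and wild-type liver (x axis, log2 fold change) for each transporter, from 8 arrays (filled points, bars are 95% confidence intervals from limma) and from the 7 arrays without Rap1 -/- replicate 2 (open diamonds). All 9 intervals include 0, and without that liver the estimates of Slco1a1 (-1.24) and Abcc4 (0.93) lie farther from 0.

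How far 1 liver set these estimates was read from its own values. Rap1 -/- replicate 2 was the lowest of the 8 livers for Slco1a4, Slco2b1, Abcc2, Abcc3, Abcc4 and Abcb1a, which is 6 of 9 transporters, whereas it was the lowest for 12.2% of all tested genes. For Slco2b1 this held narrowly with the brighter probe (4.03, against 4.05 in wild-type replicate 4). With the dimmer probe wild-type replicate 4 was the lowest (2.20, against 2.26 in Rap1 -/- replicate 2). Against the mean of the other 3 Rap1 -/- livers it was lower by 1.34 on the log2 scale for Slco1a4 and Abcb1a and by 1.6 for Abcc4, and it was 3.39 higher for Slco1a1. Without it, 2 of 9 transporters (Slco1a4 and Abcc4) had an unadjusted p under 0.05, beside 5.39% of all tested genes, and 0 of 9 passed after adjustment. The median difference of the 9 genes was then 0.22. That liver was singled out from these same values, so the counts without it describe its weight and test nothing.

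That liver lay on slide 1, and the estimates differed between slides. Within slide 1, with 2 livers per genotype, Slco1a1 differed by 1.34 (SE 1.14, adjusted p = 0.962) and Abcc4 by -0.09 (SE 0.56, adjusted p = 0.988). Within slide 2, Slco1a1 differed by -2.13 (SE 0.75) and Abcc4 by 1.14 (SE 0.15), both with an adjusted p of 0.999 and with unadjusted p values from limma of 0.0388 and 7.16e-04. These were the 2 of 9 transporters with an unadjusted p under 0.05 within slide 2, beside 3.73% of all tested genes. Of the 9 estimates, 6 had opposite signs on the 2 slides, and the difference between slides was not tested. With slide as a block, Slco1a1 differed by -0.39 (SE 0.99) and Abcc4 by 0.53 (SE 0.39), and 0 of 9 passed.

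**Figure D3:**
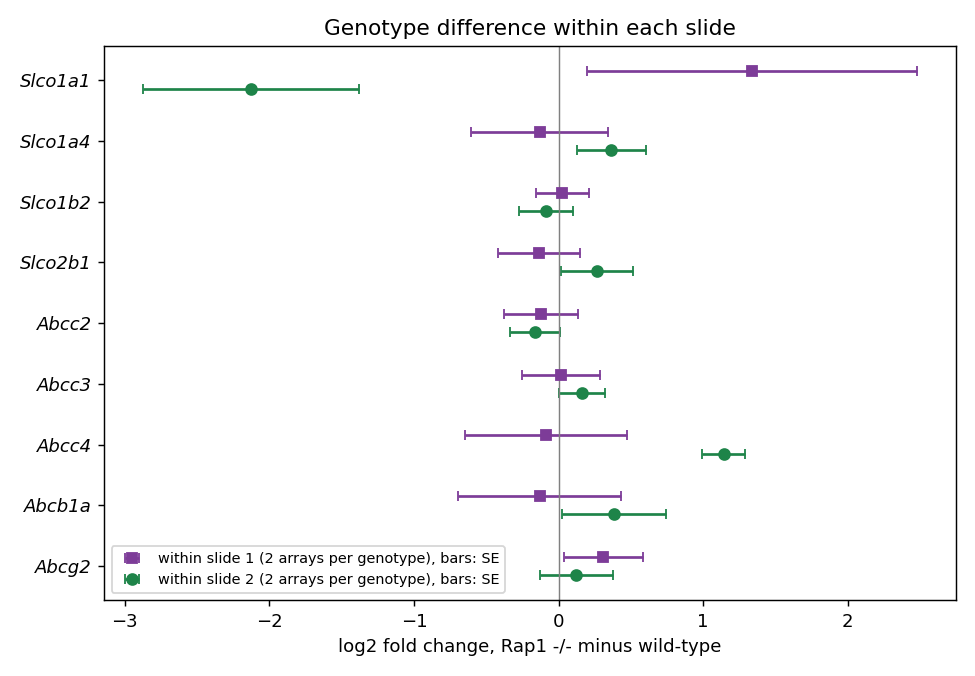
Difference in level between Rap1 -/- and wild-type liver (x axis, log2 fold change) computed on slide 1 alone (squares) and on slide 2 alone (circles), with 2 arrays per genotype on each and bars giving the SE from limma. The estimates are farthest apart for Slco1a1 (1.34 on slide 1, -2.13 on slide 2) and Abcc4 (-0.09 on slide 1, 1.14 on slide 2).

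The sex-biased genes of liver, which in mice depend on the pattern of growth hormone release, stood out in the same liver. Hsd3b5, a steroid dehydrogenase gene known for male-predominant expression, was at -2.59, 4.11, -4.69 and -1.55 in Rap1 -/- livers, against -0.24, -2.94, 1.58 and -0.13 in wild-type livers. Like Slco1a1, it was highest in Rap1 -/- replicate 2, lowest in Rap1 -/- replicate 3 and, among wild-type livers, lowest in replicate 2. Its difference between genotypes was -0.75 (SE 1.74, adjusted p = 0.961), and it was well above background on 3 of 4 Rap1 -/- and 4 of 4 wild-type arrays.

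Susd4, another gene that is higher in male than in female mouse liver, was at -0.04, 1.87, -1.24 and -0.16 in Rap1 -/- livers, against 0.07, -1.20, 0.52 and -0.53 in wild-type livers. Acot3, an acyl-CoA thioesterase gene of the female-biased list, was at 5.002, 2.36, 5.05 and 4.82 in Rap1 -/- livers, against 4.06, 5.17, 4.16 and 4.21 in wild-type livers. Sult2a1, a steroid sulfotransferase gene of that list, was at 7.43, 5.38, 7.36 and 7.48 in Rap1 -/- livers, against 5.43, 7.67, 6.26 and 7.53 in wild-type livers. For both of these, replicate 2 was the lowest Rap1 -/- liver and the highest wild-type liver, the reverse of Hsd3b5 and Slco1a1.

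Over the whole lists, Rap1 -/- replicate 2 was the highest of the 8 livers for 7 of 11 tested male-biased genes, beside 18.9% of all tested genes. It was the lowest for 10 of 14 tested female-biased genes, beside 12.2% of all tested genes. Of the same 14 it was the highest for 1, Sult3a1, at 4.79 against 3.82, 3.72 and 4.44 in Rap1 -/- replicates 1, 3 and 4. Cyp3a44 of that list was not low in it either, at 4.17 against 2.86, 4.17 and 3.41. Between genotypes, 0 of 11 male-biased genes passed (median difference 0.17) and 0 of 14 female-biased genes passed (median difference 0.01). Both Xist probes were well above background on 4 of 4 Rap1 -/- and 4 of 4 wild-type arrays. The Y-linked genes Ddx3y, Kdm5d and Eif2s3y were above background on 0 arrays, and Uty was so with 1 of its 2 probes on 1 Rap1 -/- array and on 0 wild-type arrays. The lists were chosen with earlier results of these data known, and Rap1 -/- replicate 2 was singled out from these same values. The counts for that liver are therefore a description. The part of the sex-biased pattern in the transporter values was not tested.

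**Figure D4:**
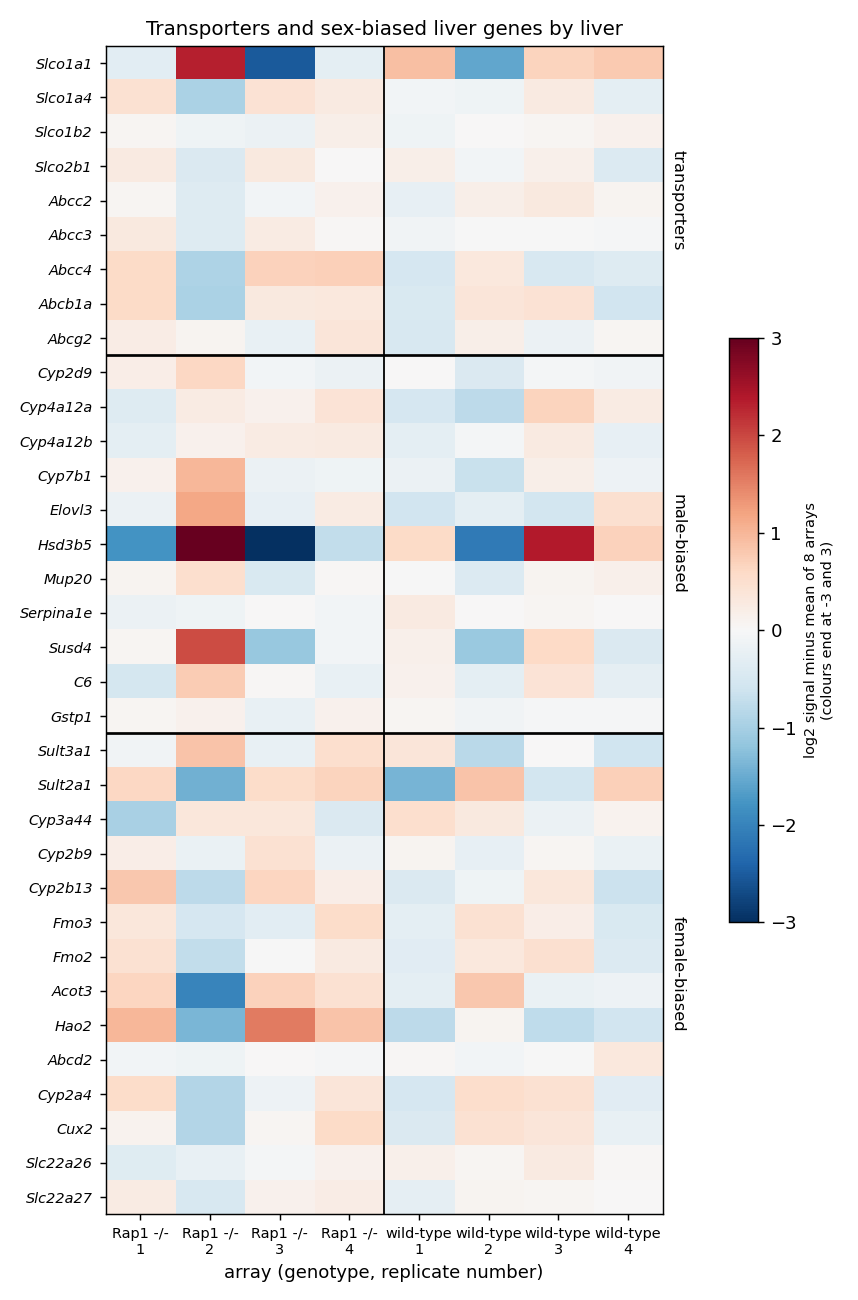
Level of each transporter, male-biased and female-biased liver gene (rows) in each liver (columns, Rap1 -/- left of wild-type) as the log2 deviation from the gene's mean over 8 arrays, with colours ending at -3 and 3. The column of Rap1 -/- replicate 2 is red, above the mean, for Slco1a1, Hsd3b5 and Susd4 and blue, below the mean, for Abcc4, Acot3, Hao2 and Sult2a1. It is above the mean as well for Sult3a1 of the female-biased list.

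Whether the transporters moved together from liver to liver was asked over all 36 pairs, with Pearson's r and Spearman's rho over 8 arrays and exact permutation p values over all 40320 pairings, adjusted over the pairs. In all, 6 pairs passed an adjusted p of 0.05 by Pearson's r and 0 by Spearman's rho. Before adjustment, 14 pairs had a p under 0.05 by Pearson's r and 7 by Spearman's rho. Pairs of other genes were not counted, so the counts do not show a trait particular to the transporters. Slco1a4 rose and fell with Abcc3 (r = 0.913, exact permutation p = 0.00119, adjusted p = 0.0318; rho = 0.833, p = 0.0154, adjusted p = 0.138). It also did so with Abcb1a (r = 0.875, exact permutation p = 0.00518, adjusted p = 0.0373; rho = 0.762, p = 0.0368, adjusted p = 0.221). With Slco2b1 the values were r = 0.865 (exact permutation p = 0.00265, adjusted p = 0.0318) and rho = 0.905 (p = 0.00456, adjusted p = 0.0869). Uptake carriers and sinusoidal and canalicular pumps are thus all represented among the pairs that varied in parallel.

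Abcc3 varied with Abcc4 (r = 0.833, exact permutation p = 0.00263, adjusted p = 0.0318; rho = 0.881, p = 0.00724, adjusted p = 0.0869) and with Abcb1a (r = 0.8, exact permutation p = 0.00791, adjusted p = 0.0475; rho = 0.738, p = 0.0458, adjusted p = 0.236). Slco1a1 ran opposite to Abcc4 (r = -0.853, exact permutation p = 0.00506, adjusted p = 0.0373; rho = -0.81, p = 0.0218, adjusted p = 0.157), and its r was below 0 with 7 of the other 8 transporters. With Slco1a4, of the same cluster, it was -0.687 (exact permutation p = 0.0607, adjusted p = 0.146; rho = -0.643, p = 0.0962).

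These relations were recomputed within genotypes and with fewer livers. On deviations from the genotype means, r was 0.915, 0.873 and 0.863 for Slco1a4 with Abcc3, Abcb1a and Slco2b1, 0.837 for Abcc3 with Abcc4, 0.8 for Abcc3 with Abcb1a and -0.889 for Slco1a1 with Abcc4. Then 2 pairs had an adjusted permutation p under the threshold, Slco1a1 with Abcc4 (adjusted p = 0.0375) and Slco1a4 with Slco2b1 (adjusted p = 0.0411). The deviations were permuted across genotypes although they sum to 0 within each. These p values are therefore approximate and may be too small. Leaving out the 2 arrays farthest from the median of the first gene left r at -0.74 for Slco1a1 with Abcc4, at 0.839, 0.593 and 0.656 for Slco1a4 with Abcc3, Abcb1a and Slco2b1, and at 0.738 and 0.478 for Abcc3 with Abcc4 and Abcb1a. Without Rap1 -/- replicate 2, r was 0.79, 0.764 and 0.801 for Slco1a4 with Abcc3, Abcb1a and Slco2b1, 0.735 and 0.608 for Abcc3 with Abcc4 and Abcb1a, and -0.77 for Slco1a1 with Abcc4. With these 7 arrays 0 of 36 pairs passed (smallest exact permutation adjusted p = 0.387), and 0 passed likewise without Rap1 -/- replicate 1 or 3 or wild-type replicate 3 or 4. With normexp background correction and quantile normalization 0 of 36 passed either (smallest exact permutation adjusted p = 0.0798), with r between 0.647 and 0.869 for the 5 parallel pairs and -0.843 for Slco1a1 with Abcc4. A slide holds 4 arrays, too few for a correlation.

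Across the tested genes, those whose values over the 8 arrays ran most like each transporter were listed as a description. Nearest to Slco1a1 were Pax2 (r = 0.971), Med1 (r = 0.956) and Hsd3b5 (r = 0.945), and nearest to Abcc4 were Hao2 (r = 0.968), Spag4 (r = 0.966) and Meltf (r = 0.962). Hsd3b5 and Hao2, a hydroxyacid oxidase gene, stand in the male-biased and in the female-biased list. Sult1c2, Aspa and Hamp2 were nearest to Abcb1a (r between 0.971 and 0.976), and 98 genes reached an r of 0.9 with it, the most of any transporter. The nearest 3 genes were 4933406I18Rik, Rhebl1 and Adssl1 for Slco1a4, Fbxl15, Spink1 and Taf3 for Slco1b2, and 4933427D14Rik, Krba1 and Srek1ip1 for Slco2b1. They were Mief2, Sertad2 and Gpd1l for Abcc2, Ccno, Mmgt2 and Ccdc159 for Abcc3, and Tcim, Ercc6l2 and Mrpl51 for Abcg2, all with r between 0.95 and 0.992. With 8 arrays and 14061 genes compared, such values are reached for every transporter.

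The promoters of Slco1a1, Slco1a4 and Abcc4 are shown because Slco1a1 and Slco1a4 are carriers of 1 gene cluster that lay at opposite ends in Rap1 -/- replicate 2, and Abcc4 had the lowest r with Slco1a1. The 250 bases before each start site are given 5′ to 3′ on the gene's strand, from RefSeq (GRCm38.p6), at chr6:141946963-141947212 (minus strand), chr6:141856221-141856470 (minus strand) and chr14:118706220-118706469 (minus strand, the first of 2 start sites). The arrays were annotated on mm9, and these coordinates are of the sequence table alone. Capitals mark matches on either strand to any of 5 motifs.
Slco1a1: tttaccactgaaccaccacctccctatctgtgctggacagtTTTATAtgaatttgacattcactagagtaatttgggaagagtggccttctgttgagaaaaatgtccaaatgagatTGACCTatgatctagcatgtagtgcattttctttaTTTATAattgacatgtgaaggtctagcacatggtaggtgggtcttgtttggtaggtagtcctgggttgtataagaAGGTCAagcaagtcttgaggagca
Slco1a4: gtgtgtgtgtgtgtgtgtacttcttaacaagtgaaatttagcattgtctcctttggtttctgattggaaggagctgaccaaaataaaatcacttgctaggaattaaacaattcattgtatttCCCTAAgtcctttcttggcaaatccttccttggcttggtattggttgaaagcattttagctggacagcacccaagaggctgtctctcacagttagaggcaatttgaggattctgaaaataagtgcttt
Abcc4: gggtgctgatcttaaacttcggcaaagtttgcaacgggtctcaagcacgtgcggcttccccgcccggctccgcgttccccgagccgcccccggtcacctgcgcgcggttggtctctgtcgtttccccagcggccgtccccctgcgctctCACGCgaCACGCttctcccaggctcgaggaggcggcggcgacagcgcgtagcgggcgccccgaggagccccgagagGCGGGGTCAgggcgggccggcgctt

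The motifs searched were TTAGGG (the telomeric repeat that shelterin binds), AGGTCA (a nuclear receptor half-site), TGACNNNGC (the core of the antioxidant response element), GCGTG (the core of the xenobiotic response element) and TATAAA (the TATA box), each on both strands. Promoter windows of 300 bases, from 250 before to 50 after the start, were matched for 8 of the 9 transporters, with 13 start sites in all, and Abcc3 had no entry. In Slco1a1, AGGTCA matched at -134 (reverse strand) and -24 from the start, and TATAAA at -209 and -99 on the reverse strand, counted to the match's leftmost base. In Slco1a4 the single match was TTAGGG, at -128 on the reverse strand. In Abcc4, GCGTG matched at -101 and -94 from the first start and TGACNNNGC at -25, all on the reverse strand.

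Over the 13 windows, AGGTCA was found in 5, TGACNNNGC in 4, TATAAA in 4, TTAGGG in 2 and GCGTG in 2. Of all 32851 windows in the table, 16.3% hold AGGTCA, 12.4% TGACNNNGC, 13.6% TATAAA, 10.6% TTAGGG and 32.4% GCGTG. The nuclear receptor and antioxidant motifs share letters and could overlap, but 0 matches to different motifs overlapped in the transporter windows. A match describes letters and not a bound site. The study names TTAGGG repeated in tandem as the motif RAP1 prefers along chromosome arms, whereas only a single TTAGGG was searched.

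Among the remaining transporters of the same families 0 passed as well. Of 11 other Slco genes 4 were tested (median difference 0.12), and Slco1a6, Slco4c1, Slco6c1 and Slco6d1 were above background on 0 arrays. Slco2a1, the prostaglandin carrier, was at 4.20, 4.51, 4.58 and 4.55 in Rap1 -/- livers, against 4.28, 3.96, 4.19 and 4.23 in wild-type livers, so 3 Rap1 -/- livers lay above the wild-type range. Its difference was 0.29 (SE 0.12, adjusted p = 0.77).

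Of 25 Slc22 genes, which encode organic cation and anion transporters, 15 were tested and 0 passed (median difference 0.04, range -0.26 to 0.17). Slc22a2 and Slc22a8, the cation and anion carriers Oct2 and Oat3 known from kidney, were above background on 0 arrays. Slc22a7, the anion transporter Oat2, differed by 0.07 (SE 0.30, adjusted p = 0.989). The smallest p values of that list belonged to Slc22a21 (difference -0.26, SE 0.12, adjusted p = 0.78) and Slc22a26 (difference -0.26, SE 0.13, adjusted p = 0.783). Both estimates were on the lower side in Rap1 -/- liver and neither passed.

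All 20 other Abcb, Abcc and Abcg genes were tested, with 0 passing (median difference 0.05, range -0.21 to 0.21). Abcb11, the bile salt export pump, differed by 0.03 (SE 0.14, adjusted p = 0.987), and Abcb4, the phospholipid flippase of the canaliculus, by 0.08 (SE 0.13, adjusted p = 0.932). Of 6 bile acid and cation carriers 4 were tested and 0 passed. Slc10a1, the sodium-dependent bile acid uptake carrier Ntcp, differed by -0.17 (SE 0.11, adjusted p = 0.829), and Slc47a1, which extrudes cations into bile, by 0.27 (SE 0.17, adjusted p = 0.829).

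Regulators known to control these transporters were read alongside. All 12 were tested and 0 passed (median difference -0.02). Nr1i3, which encodes CAR, differed by -0.04 (SE 0.17, adjusted p = 0.99), and Nr1i2, which encodes PXR, by 0.04 (SE 0.29, adjusted p = 0.992). Nfe2l2, which encodes the antioxidant regulator NRF2, differed by 0.19 (SE 0.12, adjusted p = 0.829).

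Enzymes of drug metabolism known as CAR and PXR targets were read as well. Of 12 such genes 10 were tested, 9 had an estimate above 0 and 0 passed. An unadjusted p from limma under 0.05 was found for 3 of the 10, beside 6.36% of all tested genes. As the gene lists were chosen with earlier results of these data known, these counts are a description. Their median difference was 0.21, beside 0.09 for the 9 transporters and 0.02 for all tested genes. Cyp3a11 was at 8.62, 8.38, 8.46 and 8.32 in Rap1 -/- livers, against 7.81, 7.86, 7.68 and 8.02 in wild-type livers. The 4 Rap1 -/- livers all lay above the wild-type range, and the second was not low here. They also lay above it for Cyp2c55 and Aldh1a1. Over all tested genes, the genotypes lay apart in either direction for 4.31%. The difference of Cyp3a11 was 0.60 (SE 0.11, adjusted p = 0.493). Cyp2c55 differed by 0.62 (SE 0.11, adjusted p = 0.381), Aldh1a1 by 0.44 (SE 0.13, adjusted p = 0.77) and Gsta1 by 0.92 (SE 0.42, adjusted p = 0.783). For Gsta1, replicate 2 was the lowest Rap1 -/- liver, at 0.41 against 2.36, 1.37 and 1.27. That replicate was the lowest of the 8 livers for 2 of the 10 tested enzymes, beside 12.2% of all tested genes.

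Markers of the cell types of liver are given for the mixture that each sample held. The 7 hepatocyte markers summed to between 5370 and 5740 times the array's 75th percentile in Rap1 -/- livers and between 5850 and 6620 times in wild-type livers. After normexp correction and quantile normalization, or quantile normalization of the processed signal, these 2 ranges overlapped. The median difference of these markers was 0.02, with 4 of 7 above 0, and the brightest probes weigh most in the sum (Alb at -0.21, Serpina1c at -0.20). The 6 cholangiocyte markers had a median difference of 0.41, with 4 of 6 above 0 and 0 passing, and summed to between 4.08 and 8.18 in Rap1 -/- and between 3.36 and 4.77 in wild-type livers, ranges that overlapped. Krt19 (difference 0.59, SE 0.19, adjusted p = 0.77) and Spp1 (difference 0.69, SE 0.24, adjusted p = 0.77) had the highest estimates of that list, while Cftr (difference -0.53, SE 0.40, adjusted p = 0.852) and Krt7 (difference -0.07, SE 0.24, adjusted p = 0.984) lay below 0.

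Markers of other cells passed in 0 of 6 for sinusoidal endothelium, 0 of 5 for Kupffer cells, 0 of 5 for T and B cells, 0 of 5 for stellate cells and 0 of 3 for neutrophils, with median differences of -0.01, -0.11, -0.16, 0.06 and -0.70. Summed levels of Kupffer cell markers ran from 106 to 182 in Rap1 -/- and from 133 to 198 in wild-type livers. Those of neutrophil markers ran from 2.90 to 6.47 in Rap1 -/- and from 3.30 to 12.5 in wild-type livers, and both pairs of ranges overlapped. Cd8a of T cells and Ngp of neutrophils were not tested, being well above background on fewer than 4 arrays. The part of cell composition in the transporter values was not tested.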

How the data were processed

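The members and gene lists were chosen with earlier results of these data known. Per the file headers, the spot values were extracted with Agilent Feature Extraction 10.7.3.1, whereas the methods name another release. The deposited processed signal is an intensity on a linear scale that was already background-subtracted and not normalized between arrays, and the authors' flags call each spot above background or not. The authors also deposited a table of log2 values, which matched the scanner signal after normexp correction (offset 50) and quantile normalization with a median absolute difference of 0.0017, and whose column medians ran from 6.39 to 6.40. The submitters' processing notes name limma. The 75th percentile of the signal ran from 219.8 to 226.9 in Rap1 -/- and from 178.9 to 209.3 in wild-type arrays. RNA integrity numbers were between 6.5 and 8.5 per the labels.

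Control and outlier spots were left out, repeated spots were averaged on the log2 scale, and each array's 75th percentile was subtracted. Accessions gave a symbol for 26056 probes (46.8%) through RefSeq (GRCm38.p6). Probes well above background on at least 4 of 8 arrays were tested, each gene by its brightest such probe, with limma 3.58.1 in R 4.3.3, without covariates. Where stated, an exact permutation test (two-sided, 70 partings of 8 arrays) was added, for which 0.0286 is the smallest p. Named genes are the members, Terf2ip, the 3 genes most like each member, genes of the marker and sex lists, and up to 4 genes of other lists by smallest p, with Slc22a7, Abcb11, Abcb4, Nr1i2 and Nr1i3 added for their roles after their values were seen. The normexp alternative used the median signal in place of the mean signal planned. The procedure was tested on simulated data. Alternatives are given in the closing section. The number of arrays limits the precision.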

Additional observations from a re-analysis of the deposited data

Results flagged for a closer look

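In a group of 4 livers, 1 value was taken as far from the others where its gap to the nearest, divided by the group's range, exceeded 0.829, which chance gives in about 1 in 20 groups. Over all tested genes this held for 4.89% in Rap1 -/- and 5.21% in wild-type livers, and over the 9 transporters for 2 in Rap1 -/- and 3 in wild-type livers. In Rap1 -/- livers, replicate 2 was far below the others for Slco1a4 (level 2.04, ratio 0.856) and Abcc4 (level -1.59, ratio 0.911). Among all tested genes, 1.51% had replicate 2 as such a Rap1 -/- liver. In wild-type livers, replicate 2 was far below the others for Slco1a1 (level -0.71, ratio 0.905) and far above them for Abcc4 (level -0.34, ratio 0.859). Replicate 1 was below the others for Abcc3 (level 5.99, ratio 0.89), where the wild-type livers spanned only a 1.06-fold range.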

How the results depend on the processing

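Under all 20 alternatives 0 of 9 transporters passed, 0 of 10 transporter probes passed under those run on probes (all but the mean of a gene's probes), and the median difference of the 9 stayed between -0.0871 (within slide 1) and 0.221 (without Rap1 -/- replicate 2), with -0.0198 as the lowest value on leaving out a liver. Of all tested genes, 2 passed in the main comparison. The count was 0 with normexp and quantile normalization, the authors' value table, slide 1 alone or the replicate block, and 1 with quantile normalization of the processed signal, no filter, the filter on all 8 arrays, the slide block, slide 2 alone, or on leaving out any 1 liver (lowest 1, highest 1). It was 3 with the mean of a gene's probes and with the trended and robust variance. Within slide 1 the differences turned to 1.34 for Slco1a1, -0.13 for Slco1a4, 0.025 for Slco1b2, -0.13 for Slco2b1, -0.09 for Abcc4 and -0.13 for Abcb1a, and with the authors' value table that of Abcc3 was -0.0012. On leaving out 1 liver, Slco1a1 ran from -1.24 (without Rap1 -/- replicate 2) to 0.38 (without Rap1 -/- replicate 3), Slco1a4 from -0.02 to 0.45, Slco1b2 from -0.0999 to 0.022, Slco2b1 from -0.058 to 0.22 and Abcb1a from -0.045 to 0.46, so the sign of these estimates is not settled. Abcc2 ran from -0.25 to -0.04, Abcc3 from 0.0065 to 0.23, Abcc4 from 0.38 to 0.93 and Abcg2 from 0.09 to 0.33, each with its sign kept. The causes were not tested.

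The labels number replicates 1 to 4 in both genotypes, and same-numbered livers also shared a slide. Their deviations from the genotype means correlated at 0.0911, -0.18, -0.0675 and 0.0969. Those of differently numbered livers correlated at between -0.39 and 0.231. Such correlations cannot settle whether the livers were paired. With the replicate block 0 of 9 transporters passed, and Slco1a1 differed by -0.39 (SE 1.11) and Abcc4 by 0.53 (SE 0.44). Of the 36 transporter pairs, 6 passed in the main setting. The checks of that count were chosen after seeing the data. It was 2 on deviations from the genotype means, where the permutation p is only approximate. The count was 0 with Spearman's rho, 0 with normexp and quantile normalization, 0 with quantile normalization of the processed signal and 0 with the authors' value table. On leaving out 1 liver it ran from 0 to 4. The planned comparison of proteins was not run. With 4 livers per genotype, changes of Slco1a1, Abcc4 and Abcb1a were not closely bounded. In the main comparison the confidence interval of the ratio ran from 0.17 to 3.43 for Slco1a1. It ran from 0.797 to 2.6 for Abcc4 and from 0.614 to 1.94 for Abcb1a. Changes within these intervals, small or large, were not excluded.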
